A study of Mus musculus with 3 samples.

Results

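Slc7a11, Gclc, Gclm, Nqo1, Hmox1, Txnrd1, Srxn1, Osgin1, Gsr and G6pdx are classical target genes of NRF2, the transcription factor encoded by Nfe2l2. These 10 genes were chosen by name, as array probes whose annotated symbol was on the list. No measured value entered the rule, but the list was drawn up with earlier results of these data known. They were read by 18 of the 41167 usable probes and are 10 of the 27729 genes named on the array. On 1 array or more, all 10 were detected (well above background), as were 12477 of all genes. Of the 10 genes, 6 had a single probe and 4 had several.

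RNA came from C3H10T1/2 cells, an immortal mouse embryo fibroblast line used in assays of cell transformation. The cells were left untreated, or were exposed to hexavalent chromium, Cr(VI), at 0.01 uM or at 1 uM. Exposure began 24 h after 2000 cells had been seeded in each of 3 flasks per group and lasted 48 h; the cells were then rinsed and kept in renewed medium to day 15 before RNA was isolated. Each group had 1 array, and all 3 arrays lay on 1 slide, so every value is a difference between single arrays without a replicate check, and no p-value was computed. The labels leave unsaid if RNA from the 3 flasks was combined. The question put by the design was which transcripts differed after each dose of Cr(VI), under a series title that names ERK activation, gene dysregulation and transformation.

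NRF2 is held in the cytoplasm by KEAP1, a cysteine-rich sensor that hands it to a CUL3 ubiquitin ligase for destruction. When oxidants or electrophiles modify KEAP1, NRF2 accumulates in the nucleus, pairs with a small MAF protein and binds antioxidant response elements near genes for glutathione synthesis, thioredoxin recycling, NADPH supply and quinone reduction. Cr(VI) enters cells through anion transporters and is reduced inside them by ascorbate, glutathione and cysteine, with reactive intermediates on the way.

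The promoters of Slc7a11 and Osgin1, the 2 targets that stood 2-fold apart below, are shown first so that candidate binding sites can be read in them, with Srxn1, which shares its motifs with Osgin1. Promoters were taken from RefSeq on build GRCm38.p6, 250 bases upstream of each annotated transcript start, and 9 such promoters matched 7 of the 10 genes. Gclc, Hmox1 and Gsr were not matched. Capitals mark every match, on either strand, to the antioxidant response element core TGACNNNGC, to its G form TGAGNNNGC, to the AP-1 site TGAGTCA, which FOS and JUN proteins bind, or to the amino acid response element TGATGCAA, which ATF4 binds.
Slc7a11, chr3:50443614-50443863, minus strand: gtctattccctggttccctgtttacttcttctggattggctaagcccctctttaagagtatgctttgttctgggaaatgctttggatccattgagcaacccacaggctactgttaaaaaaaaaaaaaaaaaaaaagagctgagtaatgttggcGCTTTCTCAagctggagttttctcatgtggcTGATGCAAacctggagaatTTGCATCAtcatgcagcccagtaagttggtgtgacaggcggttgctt
Osgin1, chr8:119436897-119437146, plus strand: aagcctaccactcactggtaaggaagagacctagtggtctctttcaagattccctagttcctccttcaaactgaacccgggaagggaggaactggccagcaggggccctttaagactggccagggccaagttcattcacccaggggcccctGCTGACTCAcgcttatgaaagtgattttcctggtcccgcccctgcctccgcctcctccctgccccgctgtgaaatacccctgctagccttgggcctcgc
Srxn1, chr2:152105274-152105523, plus strand: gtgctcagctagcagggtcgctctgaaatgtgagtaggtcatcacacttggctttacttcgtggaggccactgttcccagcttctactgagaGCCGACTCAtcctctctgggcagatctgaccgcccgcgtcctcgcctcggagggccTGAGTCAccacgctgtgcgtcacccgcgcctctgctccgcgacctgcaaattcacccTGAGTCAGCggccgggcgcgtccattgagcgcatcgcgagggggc

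The core TGACNNNGC was found 134 bases upstream of the start in Gclm, 92 bases upstream in Txnrd1 and 57 bases upstream in G6pdx, against 10.2% of all 32851 promoters of this length. Slc7a11 carried the G form TGAGNNNGC at 97 bases, Osgin1 at 99 bases and Srxn1 at 158 and 45 bases, against 14.4% of all promoters. TGAGTCA lay at 97 bases in Osgin1 and at 102 and 45 bases in Srxn1, against 4.46% of all promoters; the Osgin1 match and the nearer Srxn1 match overlap the G form. Slc7a11 alone among these 7 genes carried TGATGCAA, at 66 and 47 bases, against 0.791% of all promoters. Such matches describe letters in a window and are not evidence of binding in these cells.

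Levels are given as the log2 signal of a probe minus the 75th percentile of all probes on its array, so that 0 marks a probe as bright as that percentile. Different probes bind with different strength, and their levels are not set against each other. A gene is represented by its brightest probe. The interval beside a difference is the 95% interval of the scanner software's error model, which covers the reading of spots and leaves out variation between cultures. For bright probes the model's error was nearly constant, 0.14 on each array for Txnrd1. Repeated spots of detected probes had a smaller median SD of 0.06 on each array. Whether an interval spans 0 thus rests on the model's error and not on a measured spread. A gene was called apart where it differed at least 2-fold, and where the dimmer spot was not well above background the fold is a lower bound, taken against the higher of that spot's level and the lowest detected level on its array.

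Detected probes made up 41.8% of the untreated array, 36.4% of that for 0.01 uM and 41.5% of that for 1 uM. All 12 of 12 fibroblast and mesenchymal markers were detected on every array, and their linear levels summed to 691 untreated, 830 at 0.01 uM and 547 at 1 uM, with 5, 3 and 3 probes saturated in that order. These sums do not measure a change, since saturated probes give no fold. Col1a1, saturated throughout, had intensities of 63868.0, 63412.3 and 63050.2 but scaled levels of 6.52, 6.94 and 6.39, in the same order. Of 8 leukocyte markers 2 were detected untreated, 2 at 0.01 uM and 3 at 1 uM, with sums of 5.01, 4.86 and 4.97. Cd68 and Lyz2 were detected on all arrays and Aif1 at 1 uM alone, while Ptprc and the others were below detection on all arrays. No epithelial marker of 6 was detected, with sums of 0.213, 0.358 and 0.222. Of 4 endothelial markers only Cdh5 was detected, at 1 uM, with sums of 0.164, 0.233 and 0.565. The part of other cells in the values below was not tested, and in bulk RNA fewer cells of a type and less RNA per cell cannot be told apart.

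After 1 uM Cr(VI) the NRF2 targets did not all lie on one side of untreated cells. Slc7a11, the cystine importer, was 4.08-fold higher at 1 uM, and Osgin1, an oxidative stress-induced growth inhibitor, was 3.32-fold lower. Thus 1 of 10 genes was at least 2-fold higher and 1 of 10 at least 2-fold lower, where 5.65% and 4.86% of 12452 compared genes were. The median log2 difference of the 10 genes was 0.20, against -0.04 for all genes. The technical interval of the brightest probe lay above 0 for Slc7a11, Gsr and Srxn1, below 0 for Osgin1 and spanned 0 for the other 6. Of the 10 differences 6 were above 0, where 46.8% of all genes were, and the signs of Nqo1, G6pdx and Hmox1 depended on the scaling.

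**Figure D1:**
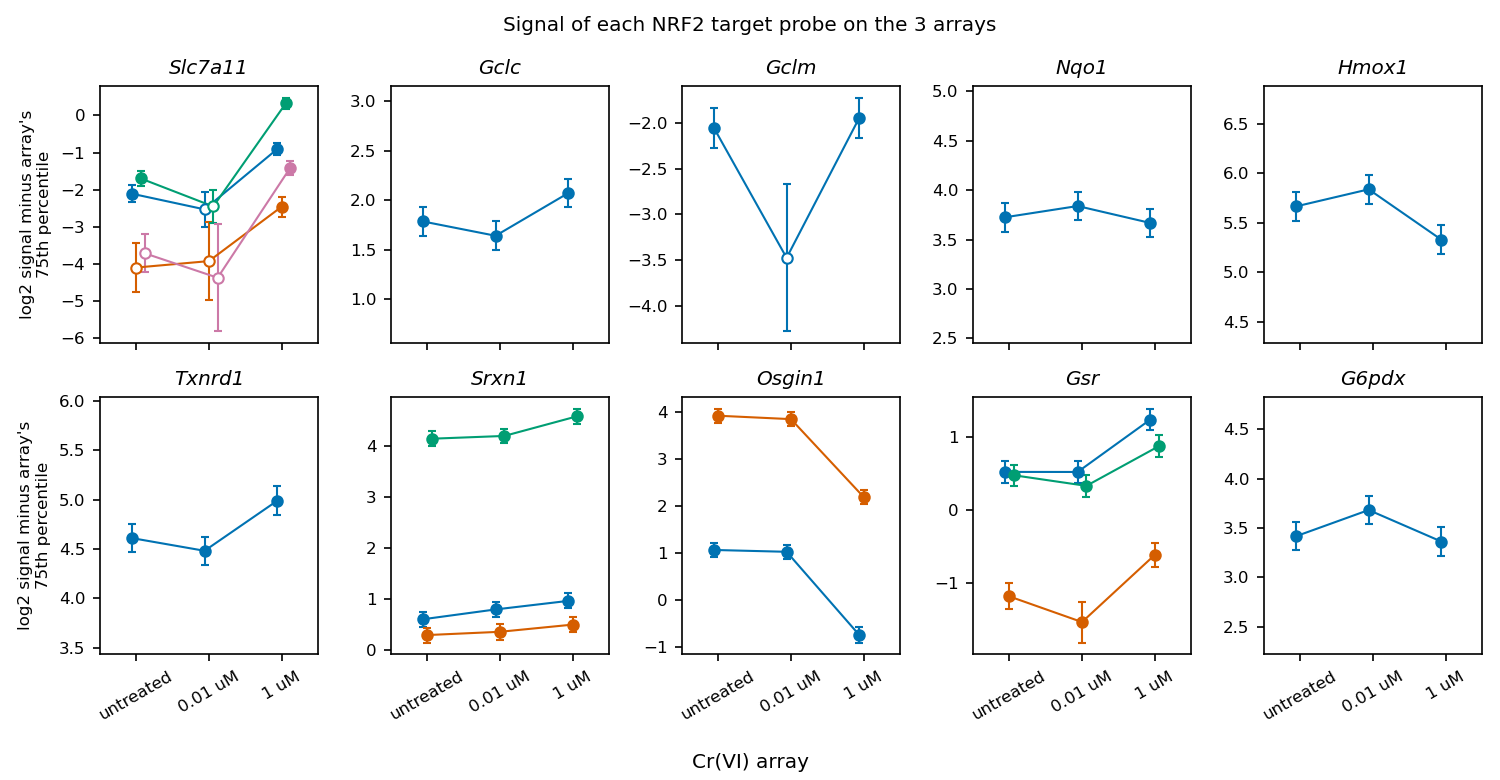
Level of each of the 18 probes (log2 signal minus the array's 75th percentile, y axis; the range of the axis differs between panels) on the untreated, 0.01 uM and 1 uM arrays (x axis), with 1 line per probe, bars for the standard error of the scanner error model, and open symbols for spots not well above background. All 4 Slc7a11 probes are highest at 1 uM and both Osgin1 probes are lowest there.

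Slc7a11 encodes xCT, the light chain of the antiporter that brings in cystine in exchange for glutamate and so supplies cysteine for glutathione. Its brightest probe, at chr3:50169700-50169759 on the minus strand of build mm9, starts at base 8325 of the transcript and read -1.70 untreated, -2.45 at 0.01 uM and 0.33 at 1 uM. The 0.01 uM spot was not well above background. In processed intensity the same spots gave 214.9 untreated, 94.1 at 0.01 uM and 946.7 at 1 uM, so the 1 uM array stood apart from both others. The log2 difference of 1 uM minus untreated was 2.03 (SE 0.25, interval 1.55 to 2.51), and 2.40% of all compared genes had a larger one.

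The other 3 Slc7a11 probes pointed the same way. The probe at base 1978 read -2.11 untreated, -2.53 at 0.01 uM and -0.91 at 1 uM, a 2.30-fold higher signal at 1 uM than untreated. The probe at base 7687 read -4.10 untreated, -3.93 at 0.01 uM and -2.46 at 1 uM, and was detected at 1 uM alone, at least 1.47-fold higher there than untreated. A probe made from a cDNA clone, at chr3:50246786-50246845, read -3.72 untreated, -4.38 at 0.01 uM and -1.41 at 1 uM, likewise detected at 1 uM alone and at least 3.05-fold higher there than untreated. The 4 probes do not overlap one another and are no replicates of the culture. Of the 4 probes 3 passed 2-fold at 1 uM against untreated, where 5.38% of all probes were that much higher. With normexp the brightest probe alone passed, at 2.86-fold, while the probe at base 1978 was 1.49-fold higher and the bound of the clone probe lay just under 2-fold.

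Gclc and Gclm are the catalytic and modifier subunits of glutamate-cysteine ligase, which joins cysteine to glutamate in the first step of glutathione synthesis. Gclc, read at chr9:77641296-77641355 on the plus strand, stood at 1.78 untreated, 1.64 at 0.01 uM and 2.07 at 1 uM. The log2 difference of 1 uM minus untreated was 0.29 (interval -0.11 to 0.69), which spans 0. Gclm was a dim gene, with a level of -2.06 untreated, -3.48 at 0.01 uM, where it was not well above background, and -1.95 at 1 uM. For Gclm 1 uM minus untreated was 0.11 (interval -0.49 to 0.72). The error-model interval thus spanned 0 for both subunits, while that of the cystine importer's brightest probe did not.

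The only Gclm probe is shown because its 60 bases cover 2636 bases of the genome (mm9, chr3:121962174-121964809, plus strand), so it crosses a gap between genomic blocks and reads spliced RNA. It has no overlap with another probe of the list.
Gclm probe: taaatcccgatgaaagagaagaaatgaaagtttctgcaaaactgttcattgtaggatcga

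Gsr, glutathione reductase, returns oxidised glutathione to its reduced form at the cost of NADPH. Its brightest probe (base 1850, chr8:34807813-34807872, plus strand) read 0.52 untreated, 0.52 at 0.01 uM and 1.24 at 1 uM. The log2 difference of 1 uM minus untreated was 0.72 (interval 0.31 to 1.12), or 1.64-fold, under the 2-fold line, and 11.7% of all genes had a larger one. Both further Gsr probes lay on the same side. The one at base 2415 read -1.19 untreated, -1.54 at 0.01 uM and -0.62 at 1 uM, a difference of 0.57 (interval 0.10 to 1.04) for 1 uM minus untreated. The one at base 2436, which overlaps it, read 0.47 untreated, 0.33 at 0.01 uM and 0.87 at 1 uM, a difference of 0.40 (interval -0.01 to 0.81).

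G6pdx, glucose-6-phosphate dehydrogenase, is the entry enzyme of the pentose phosphate pathway and a main source of that NADPH. At chrX:71654949-71655008 on the minus strand it read 3.42 untreated, 3.68 at 0.01 uM and 3.36 at 1 uM. For G6pdx 1 uM minus untreated was -0.05, with an interval that spanned 0 and a sign that turned under 6 of 8 alternative settings. The sign held only with the deposited table and with outlier spots kept, which nearly repeat the reported scaling.

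Txnrd1, the cytosolic thioredoxin reductase, keeps thioredoxin reduced. Read at chr10:82360230-82360289 on the plus strand, it stood at 4.61 untreated, 4.48 at 0.01 uM and 4.99 at 1 uM. Its log2 difference of 1 uM minus untreated was 0.38 (interval -0.02 to 0.78), which just includes 0. Srxn1, sulfiredoxin, restores overoxidised peroxiredoxins. Its brightest probe (base 2412, chr2:151936919-151936978, plus strand) read 4.14 untreated, 4.19 at 0.01 uM and 4.58 at 1 uM, a difference of 0.44 (interval 0.04 to 0.84) or 1.36-fold for 1 uM minus untreated. The probe at base 678 read 0.60 untreated, 0.79 at 0.01 uM and 0.96 at 1 uM. The probe at base 725, which overlaps it, read 0.29 untreated, 0.36 at 0.01 uM and 0.50 at 1 uM. They differed by 0.36 (interval -0.05 to 0.77) and 0.20 (interval -0.20 to 0.61) for 1 uM minus untreated, and both intervals span 0. All 3 Srxn1 probes were thus above 0, and none reached 2-fold with the reported scaling.

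Nqo1, which reduces quinones without releasing radicals, is often the readout chosen for NRF2. At chr8:109912440-109912499 on the minus strand it read 3.73 untreated, 3.84 at 0.01 uM and 3.67 at 1 uM. The difference was -0.06 for 1 uM minus untreated, and its sign turned under 6 of the 8 settings. It held only with the deposited table and with outlier spots kept, which nearly repeat the reported scaling. Hmox1, haem oxygenase 1, splits haem into biliverdin, iron and carbon monoxide and is also held down by the repressor BACH1. At chr8:77624207-77624266 on the plus strand it read 5.67 untreated, 5.84 at 0.01 uM and 5.33 at 1 uM. Its log2 difference of 1 uM minus untreated was -0.34 (interval -0.74 to 0.06), below 0 under 7 of the 8 alternative settings and above 0 under spike-in scaling. Those 7 include the deposited table and outlier spots kept. Neither gene was higher at 1 uM than untreated with the reported scaling.

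Osgin1 was the one target at least 2-fold lower at 1 uM. Its brightest probe (base 1881, chr8:121970077-121970136, plus strand) read 3.92 untreated, 3.85 at 0.01 uM and 2.19 at 1 uM. In processed intensity these spots gave 10553.8 untreated, 7421.4 at 0.01 uM and 3432.4 at 1 uM, all far from background and unsaturated. The log2 difference of 1 uM minus untreated was -1.73 (SE 0.20, interval -2.13 to -1.33), and 2.43% of all genes had a lower one. The probe at base 1676 (chr8:121969872-121969931) read 1.06 untreated, 1.02 at 0.01 uM and -0.75 at 1 uM, a difference of -1.81. Both probes were thus at least 2-fold lower at 1 uM, where 4.71% of all probes were.

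**Figure D2:**
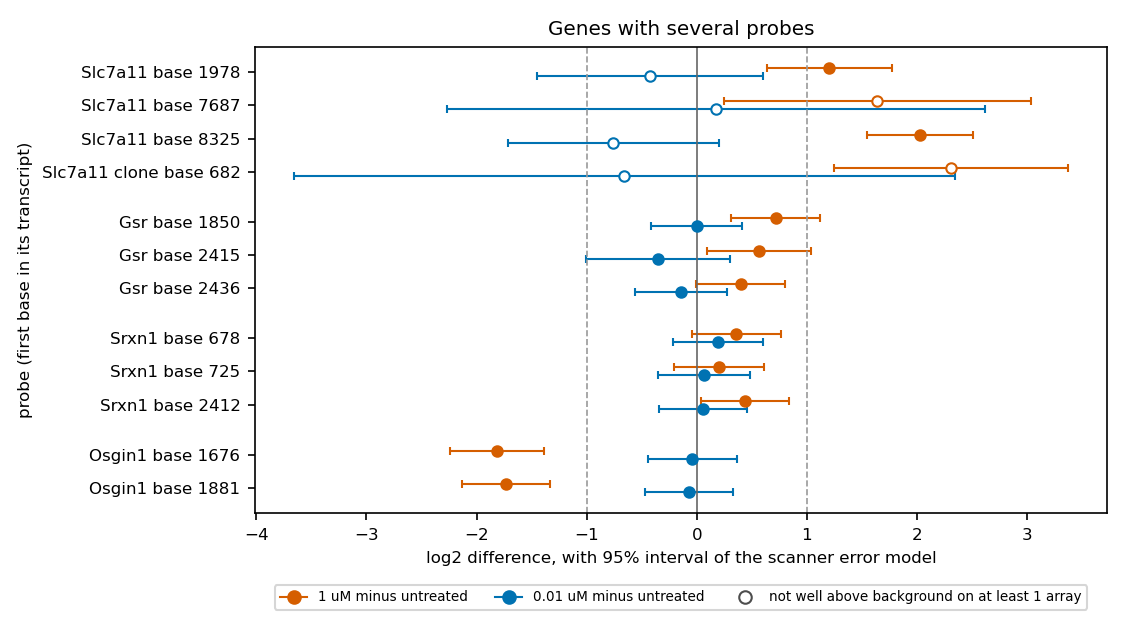
Log2 difference from untreated (x axis) of every probe of the 4 genes with several probes (rows), at 1 uM in orange and at 0.01 uM in blue, with the 95% interval of the scanner error model; open symbols mark probes that were not detected on 1 or both arrays, and dashed lines mark 2-fold. At 1 uM the plotted values of Slc7a11 lie between 1.20 and 2.31 and those of Osgin1 between -1.81 and -1.73. The Slc7a11 probes at base 7687 and of the clone were detected at 1 uM alone, and their bounds are 0.56 and 1.61.

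After 0.01 uM Cr(VI) none of the 10 genes was at least 2-fold higher or lower than untreated, where 0.269% of 11915 genes were higher and 0.168% lower. The median log2 difference was -0.04, against 0.05 for all genes, and the technical interval spanned 0 for all 10 genes. Of the 10 differences 6 were below 0, where 39.0% of all genes were, and 5 of the 10 signs depended on the scaling. The 8 genes measured on both arrays lay between -0.14 for Gclc and 0.27 for G6pdx. The other two, Slc7a11 and Gclm, were not well above background at 0.01 uM. By these bounds the brightest Slc7a11 probe was 1.33-fold lower than untreated there and Gclm 1.04-fold lower. Their log2 differences as read were -0.76 (interval -1.715 to 0.20) and -1.42 (interval -3.05 to 0.21), so a decrease was not resolved. The Slc7a11 probe at base 1978 had a bound of 1.00-fold, and its remaining probes were detected on neither array. Fewer member probes were detected on the 0.01 uM array, 13 of 18 against 16 of 18 untreated, as were fewer probes in all. The part of the dimmer array in the Slc7a11 and Gclm values was not tested.

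Setting 1 uM against 0.01 uM uses the same 1 uM array as the comparison with untreated cells. Against 0.01 uM, the brightest Slc7a11 probe at 1 uM was higher by at least 5.44-fold and Osgin1 was 3.16-fold lower. That made 1 of 10 genes each way, where 5.2% of 12061 genes were higher and 6.47% lower. The Slc7a11 bound fell to 3.60-fold in its weakest alternative. The other Slc7a11 probes gave smaller bounds, 2.31-fold at base 1978, 1.63-fold for the clone probe and 0 on the log2 scale at base 7687. By probe, 2 of 18 were past 2-fold higher and 2 lower, where 5.12% and 6.34% of all probes were. The median log2 difference of the 10 genes was 0.41, or 0.28 with bounds for the dim values, and 6 were above 0, where 45.5% of all genes were. Gclm, dim at 0.01 uM, was at least 1.12-fold higher at 1 uM. Gsr was higher by 0.72, Txnrd1 by 0.51 (interval 0.11 to 0.91), Gclc by 0.43 and Srxn1 by 0.38 on the log2 scale. Hmox1 differed by -0.51 (interval -0.91 to -0.11) and was below 0 under all 8 alternative settings, but as little as -0.13. With quantile normalization, spike-in scaling, loess and normexp it was smaller in size than the model's error of 0.20, so a decrease was not resolved there. G6pdx differed by -0.32, above 0 with spike-in scaling only, and Nqo1 by -0.17, above 0 under 4 of the 8.

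**Figure D3:**
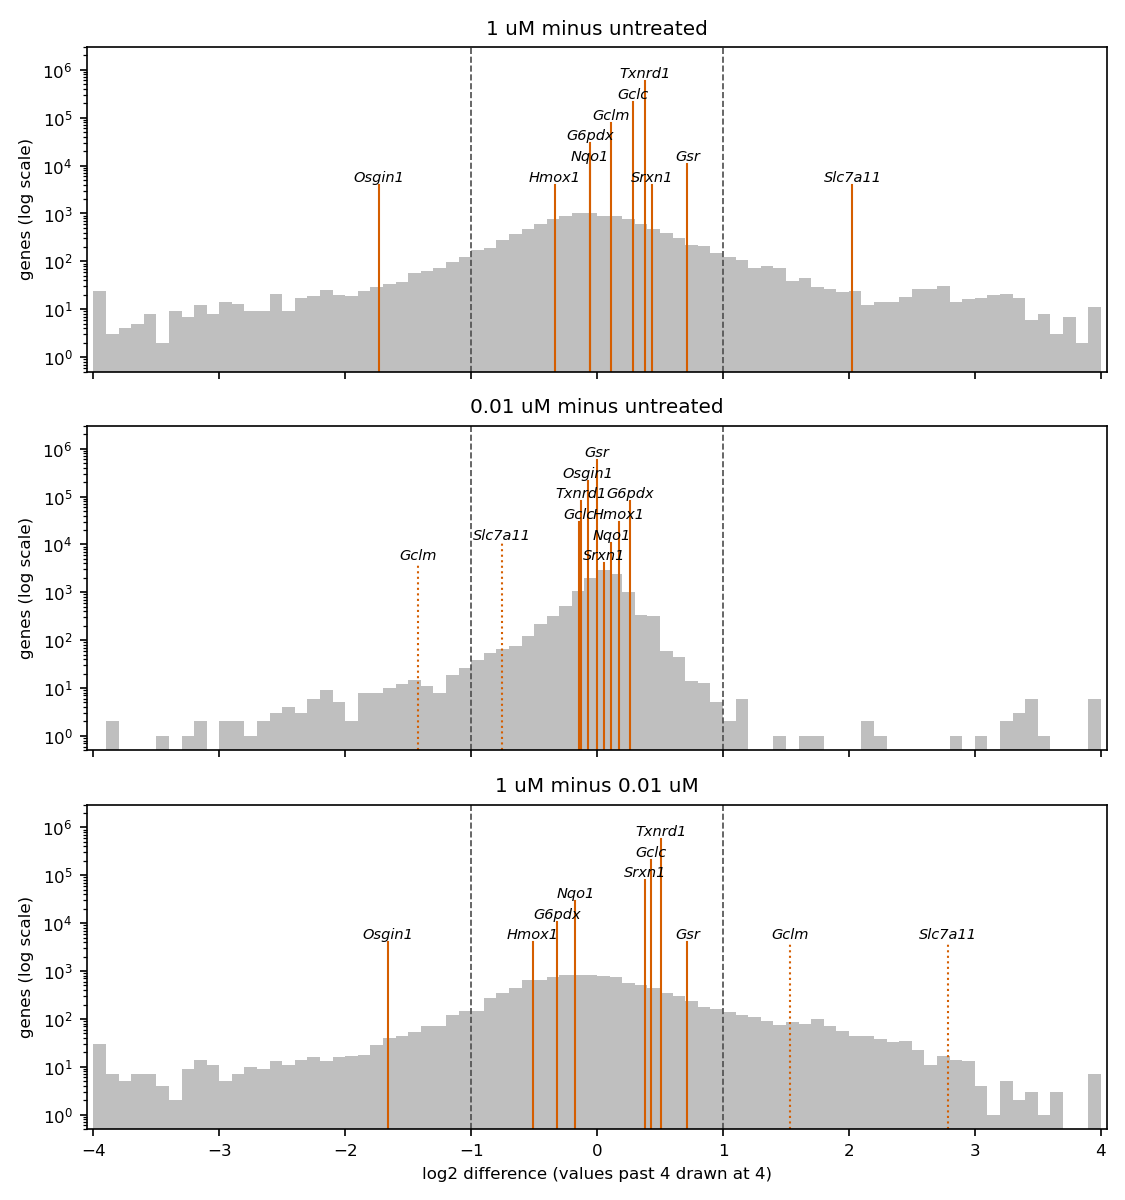
Histograms of the log2 difference of all compared genes (x axis, grey, counts on a log scale on the y axis) for the 3 pairs of arrays, with an orange line at each NRF2 target, dotted where a spot was not well above background, and dashed lines at 2-fold. Slc7a11 and Osgin1 lie outside the 2-fold lines wherever the 1 uM array is one of the pair, Gclm falls outside them only by values from a spot not well above background, and the other 7 lie inside.

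The choice of scaling set how much of this pattern was read as upward. With the 5 spike-in controls as the yardstick, the median of all genes at 1 uM minus untreated was 0.64 in place of -0.04, and every gene moved by that same constant. Relative to the median of all genes the order of the targets was therefore the same. Slc7a11 stayed between 1.52 and 2.71, Osgin1 between -1.73 and -1.05 and Gsr between 0.71 and 1.40 over the 8 alternatives. Srxn1 ranged from 0.44 to 1.12, Txnrd1 from 0.38 to 1.06, Gclc from 0.29 to 0.97 and Gclm from 0.01 to 0.80. Thus 7 of 10 genes kept their sign and 3 did not, namely Nqo1 (-0.06 to 0.63), G6pdx (-0.05 to 0.63) and Hmox1 (-0.34 to 0.35).

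**Figure D4:**
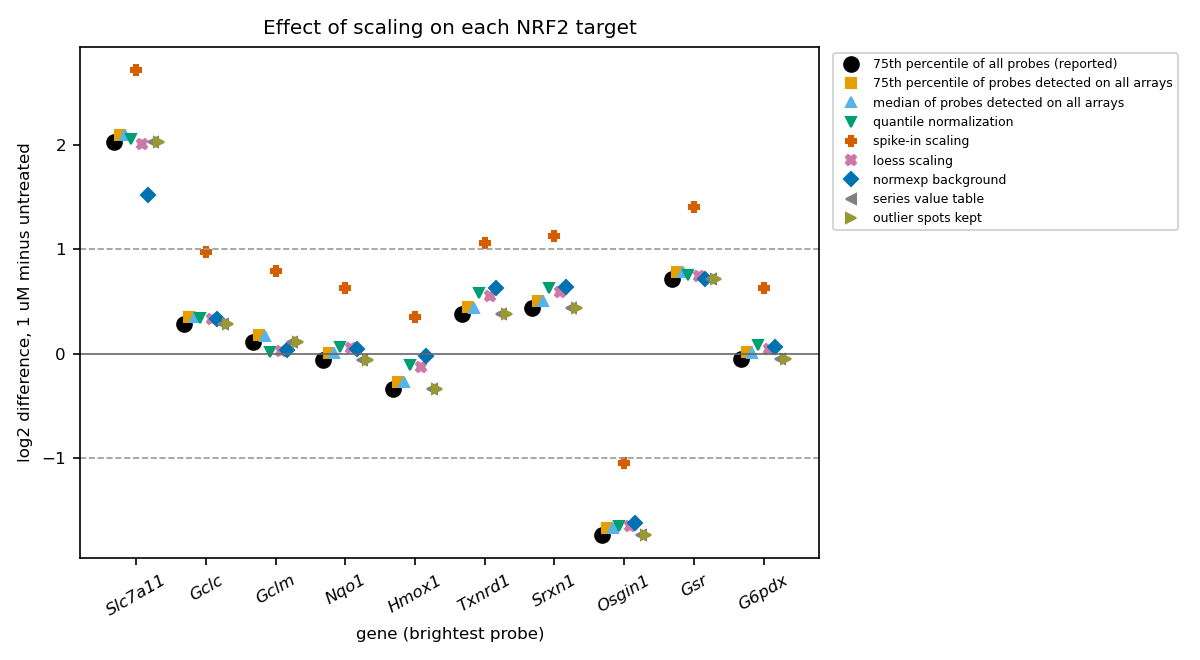
Log2 difference of 1 uM minus untreated (y axis) for the brightest probe of each NRF2 target (x axis) under the reported scaling (black) and 8 alternatives (coloured symbols), with dashed lines at 2-fold. Spike-in scaling lifts all genes by 1 constant, and under it Nqo1, G6pdx and Hmox1 lie above 0; Slc7a11 lies above 1 and Osgin1 below -1 under every setting shown.

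Around the targets, 71 further genes in 7 lists cover the upstream regulators and the enzymes that work with them. At 1 uM minus untreated, 2 of the 67 compared genes were at least 2-fold higher and 1 was lower, against 5.65% and 4.86% of all genes. With spike-in scaling the medians of all 7 lists were above 0, as was that of all genes (0.64). Under it 3150 of all genes were at least 2-fold higher, against 703 as reported. Among 14 NRF2 pathway regulators none was 2-fold apart, 1 being higher with spike-in scaling, and the median was -0.15, but 0.01 with quantile normalization and with normexp and 0.53 with spike-in scaling. Nfe2l2 itself, named here after its values were seen, read 4.77 untreated, 4.76 at 0.01 uM and 5.07 at 1 uM on its brightest probe, a difference of 0.30 for 1 uM minus untreated. Its other probes gave 0.26 and -0.60, so they disagreed in sign, the last also turning above 0 with spike-in scaling. Keap1, also named after its values were seen, read 2.09 untreated, 2.21 at 0.01 uM and 1.81 at 1 uM, lower by 0.29 on the log2 scale at 1 uM than untreated except with spike-in scaling, where it was higher. Mafk, a small MAF partner of NRF2, read 0.56 untreated, 0.75 at 0.01 uM and -0.31 at 1 uM, 2.08-fold lower at 1 uM than at 0.01 uM but under 2-fold in 4 of the 8 alternatives, with 1.61-fold as the weakest.

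The genes of cystine and glutathione handling divided evenly, with 6 of 12 compared genes above 0 and 6 below at 1 uM minus untreated. Their median was -0.01, but above 0 under 6 of the 8 alternatives and up to 0.67. It stayed below 0 only with the deposited table and with outlier spots kept, which nearly repeat the reported scaling. Abcc4, an efflux pump for conjugates and cyclic nucleotides, read 0.02 untreated, -0.01 at 0.01 uM and 1.02 at 1 uM, 2.01-fold higher at 1 uM than untreated but 1.86-fold with normexp; its other probe was not detected. Slc3a2, the heavy chain that carries xCT to the membrane, was named after its values were seen. Its brightest probe read 6.41 untreated, 6.72 at 0.01 uM and 6.01 at 1 uM, a difference of -0.40 for 1 uM minus untreated. Its other probe read -0.21 untreated, 0.65 at 0.01 uM and -0.33 at 1 uM, a difference of -0.12 for 1 uM minus untreated. Both differences turned positive with spike-in scaling. At 0.01 uM the brightest probe was 1.24-fold higher than untreated (log2 0.31, interval -0.09 to 0.71), but by only 0.03 in its weakest alternative. Its processed intensity was 59410.8 untreated and 54458.9 at 0.01 uM, near that of saturated spots such as S100a4 (60862.1 untreated). The other, dimmer probe was 1.81-fold higher at 0.01 uM. At 1 uM the partner chain of the cystine antiporter was thus not higher alongside Slc7a11 under the 7 alternatives other than spike-in scaling. In the ATF4 and amino acid response list, Chac1, which degrades glutathione, read 4.22 untreated, 4.23 at 0.01 uM and 5.36 at 1 uM, 2.20-fold higher at 1 uM than untreated and past 2-fold in all 8 alternatives. The other 5 genes of that list, Atf4 among them, were below 0 and its median was -0.22, but 3 of 6 were above 0 under quantile normalization, loess and normexp and all 6 under spike-in scaling, and the median ranged up to 0.47.

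Thioredoxin and peroxiredoxin genes had a median of -0.24 at 1 uM minus untreated, with 10 of 12 below 0, but with a median of 0.45 and 9 of 12 above 0 under spike-in scaling. Msra, a methionine sulfoxide reductase, read 1.28 untreated, 1.47 at 0.01 uM and 0.16 at 1 uM, 2.17-fold lower at 1 uM than untreated, but under 2-fold with normexp and with spike-in scaling, where it was 1.35-fold lower. Txnip, which binds and blocks thioredoxin, read 4.91 untreated, 5.06 at 0.01 uM and 3.94 at 1 uM on its brightest probe. That probe was 2.18-fold lower at 1 uM than at 0.01 uM but under 2-fold in 5 of the 8 alternatives. The weakest was 1.68-fold. Its log2 difference of 1 uM minus untreated was -0.98, just under 2-fold. The other Txnip probe, detected on every array, differed by -1.43 for 1 uM minus 0.01 uM. It stayed between -1.47 and -1.02 over the 8 alternatives, past 2-fold in each. For 1 uM minus untreated the other probe differed by -1.24, but by -0.56 in its weakest alternative, under 2-fold. The 7 NADPH-producing enzymes listed beside G6pdx were all within 2-fold, with a median of 0.07 at 1 uM minus untreated and of 0.76 with spike-in scaling. Their brightest, Tkt and Taldo1, enzymes of the later pentose phosphate pathway, differed by -0.19 and 0.18, and Tkt turned sign under 4 of the 8 alternatives.

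The quinone, haem and iron genes had none past 2-fold at 1 uM minus untreated, but 3 higher with spike-in scaling, where 3150 of all genes were. The ferritin chains Fth1 and Ftl1, their brightest, were saturated on both the 1 uM and the untreated array and give no fold. The median of this list was -0.16 as measured, -0.07 with both ferritins counted as 0 and an undetected value at its bound, and above 0 with loess (0.02) and spike-in scaling (0.53). Superoxide and peroxide enzymes had a median of -0.34 over 4 genes, or -0.10 with Sod3, undetected at 1 uM, at its bound of 0, and 0.35 with spike-in scaling. Sod3, the extracellular superoxide dismutase, read -2.92 untreated, -1.31 at 0.01 uM and -3.85 at 1 uM, where it was not detected. It was 3.05-fold higher at 0.01 uM than untreated, the 1 gene of the 7 lists past 2-fold in that comparison, but 1.77-fold higher with normexp, where no listed gene passed. The untreated spot lay close to the lowest detected level of its array, -3.02. Sod3 was at least 2.82-fold lower at 1 uM than at 0.01 uM.

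**Figure D5:**
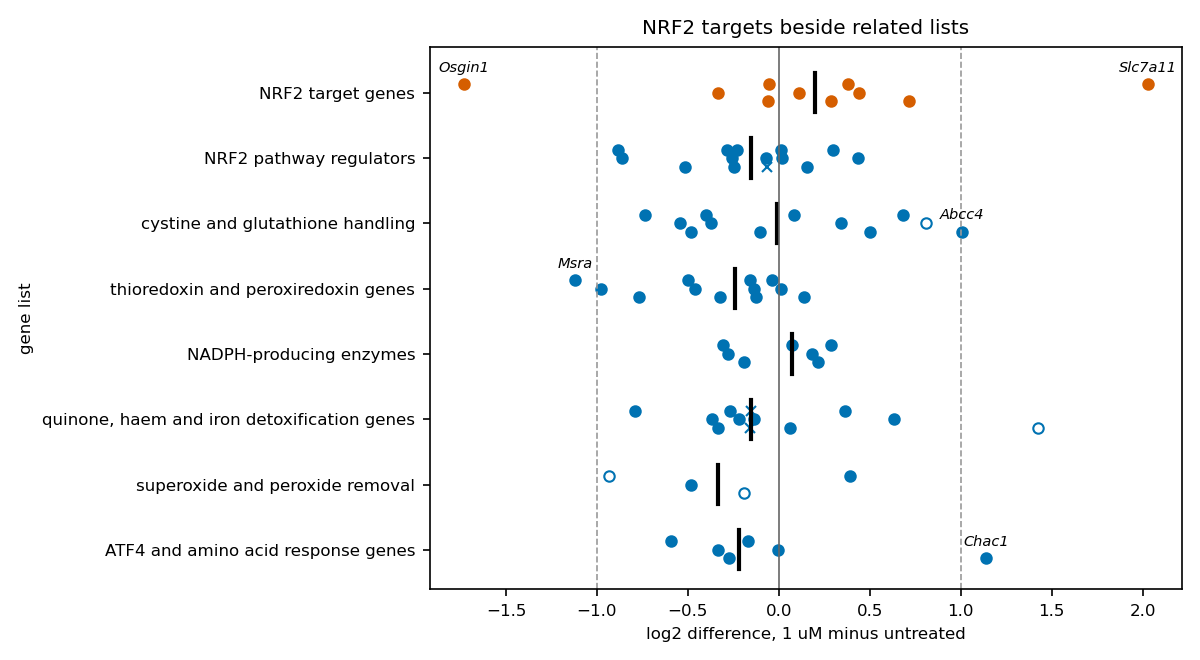
Log2 difference of 1 uM minus untreated (x axis) for the NRF2 targets (orange, top row) and 7 related lists (blue), 1 symbol per compared gene, open where a spot was not detected or was saturated on 1 array and a cross where both were saturated, with black bars for list medians and dashed lines at 2-fold. Medians of the measured values lie between -0.34 and 0.20 with the reported scaling, the lowest (superoxide and peroxide removal) being -0.10 with an undetected value at its bound; with spike-in scaling all 8 are above 0.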

How the data were processed

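The RNA of 3 samples was read on Agilent 1-colour arrays. Per the file headers, the authors obtained spot intensity from a Cy3 scan in Agilent Feature Extraction 10.5.1.1. The deposited table holds log2 values which differed from the log2 processed signal by 1 constant per array, within 0.01 for over 99.8% of probes. The constants, 9.45 untreated, 9.01 at 0.01 uM and 9.56 at 1 uM, equal the arrays' 75th percentiles at that rounding. The table's medians were -4.23 untreated, -3.96 at 0.01 uM and -4.03 at 1 uM. Control and outlier spots were left out, spots of a probe averaged on the log2 scale, and each array's 75th percentile subtracted. Probe genes were named through RefSeq accessions (25097 probes), symbols (6333) or synonyms (1640), and 8104 kept the file's name; coordinates are those of the files (mm9). A gene was compared if well above background on at least 1 array of the pair. The NRF2 targets and the related lists were chosen with earlier results of these data known. Named were all targets and, per list, genes at least 2-fold apart in any comparison or else the 2 brightest; Nfe2l2, Keap1 and Slc3a2 were added after values were seen. Alternatives were other scalings (percentile or median of detected probes, quantile, spike-in controls, loess with span 0.4), normexp background correction with offset 50 (limma 3.58.1, R 4.3.3), the deposited table, outliers kept, other filters, mean of probes and other thresholds. Of the alternatives, the deposited table and outliers kept left the targets' values almost unchanged and nearly repeat the reported scaling. The scripts for the count of genes past 2-fold were checked on simulated data before use. Software was Python 3.11.15 (pandas 2.3.3, numpy 2.4.6, statsmodels 0.14.6). The number of arrays limits the precision.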

Additional observations from a re-analysis of the deposited data

How the results depend on the processing

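Of the counts and medians of the NRF2 targets, 103 were as reported or nearly so under the alternatives and 11 moved. The 103 include the deposited table and outlier spots kept, which nearly repeat the reported scaling. They also include filters on dim probes at 1 uM minus untreated, which could change nothing with all 10 genes detected on both arrays. The tally is thus no measure of stability. With spike-in scaling 4 genes (Slc7a11, Gsr, Srxn1 and Txnrd1) passed 2-fold upward at 1 uM against untreated, with a median of 0.88. Of all genes 3150 then did, with a median of 0.64, against 703 of 12452 as reported. The median of 0.01 uM minus untreated was 0.28, against 0.36 for all genes. With the same scaling 2 genes (Slc7a11 and Gsr) were higher at 1 uM than at 0.01 uM, with a median of 0.78. Of all genes 1360 then were, with a median of 0.31, against 627 of 12061 as reported. With a 1.5-fold threshold Slc7a11 and Gsr were higher at 1 uM than untreated and higher than at 0.01 uM, 2 in each case. The share of all genes past 1.5-fold is not given here. Without a filter on dim probes 1 gene (Gclm) was lower at 0.01 uM than untreated and 2 (Slc7a11 and Gclm) were higher at 1 uM than at 0.01 uM. Requiring both arrays well above background left 8 genes for 1 uM minus 0.01 uM, with 0 higher and a median of 0.11, since Slc7a11 and Gclm dropped out. With bounds in place of dim values, an alternative chosen after seeing the data, that median was 0.28. No called probe reversed.

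Over all genes at 1 uM minus untreated, 703 were higher and 605 lower as reported, against 3150 and 175 with spike-in scaling and 302 and 400 with normexp. At 0.01 uM minus untreated they were 32 and 20, against 65 and 5 with spike-in scaling, 5 and 5 with normexp, 36 and 13 with quantile normalization and 29 and 30 with the percentile of detected probes. At 1 uM minus 0.01 uM they were 627 and 780, against 1360 and 369 with spike-in scaling and 809 and 596 with the percentile of detected probes. The cause was not tested. No paired analysis was possible because each group had 1 array. With 1 array per dose, on 1 slide, variation between cultures was not measured, and dim probes limit what can be said of Slc7a11 and Gclm at 0.01 uM.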
